A study of Arabidopsis thaliana with 8 samples.

Results

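The core cell cycle genes other than the B-type cyclins were examined in Arabidopsis thaliana seedlings as 42 loci, out of 25665 loci with a probe on the array. They comprise 5 cyclin-dependent kinases (CDKA;1 and the B-type kinases), 8 A-type cyclins, 10 D-type cyclins, 9 kinase inhibitors (7 KRP genes, SIM and LGO), the 4 genes E2FA, E2FB, E2FC and RBR1, the 3 genes MYB3R1, MYB3R4 and KNOLLE, and the 3 activators CDC20.1, CCS52A1 and CCS52A2. They were selected by name with earlier results of these data known, and a probe was assigned to a gene by the locus identifier in the scanner tables.

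Seedlings of the 35S:MYB87-SRDX line (n = 4 arrays) were compared with wild type (n = 4 arrays), both of the Columbia-0 ecotype, 2 weeks old and harvested whole, with 5 seedlings in a sample. MYB87 belongs to the R2R3 MYB transcription factors, SRDX is a short motif that makes a transcription factor act as a repressor, and the viral 35S promoter drives the fusion in most plant tissues. Labels of both groups describe T2 seedlings on MS agar with 1% sucrose at 23 °C, under 16 h of light and 8 h of dark. Hygromycin was in the medium of the transgenic samples only, and the arrays of each group share a slide that holds no array of the other, so genotype, hygromycin and slide cannot be told apart. The sources used here do not give the number of transgenic lines. No label states that the samples of a group came from separate cultures, so each p-value covers only the spread among these samples, which may be technical.

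In plants, D-type cyclins bind cyclin-dependent kinases to phosphorylate the retinoblastoma protein RBR1, which frees E2F factors to switch on genes of DNA replication. A-type cyclins act from S phase towards mitosis, the plant-specific B-type kinases act in G2 and mitosis, and MYB3R factors control many mitotic genes, among them the cytokinesis gene KNOLLE. The anaphase-promoting complex (APC/C) and its activators CDC20 and CCS52 destroy cyclins, while KRP and SIM-type inhibitors restrain the kinases and favour endoreduplication, the repeated copying of DNA without division. In whole seedlings, fewer dividing cells and less RNA per dividing cell cannot be told apart.

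Values are log2 processed signals after subtraction of each array's 75th percentile, so a difference of 1 is a doubling. Levels are compared between arrays and not between genes, apart from the sums of marker signals below. Those sums add different probes, so a gene's share of a sum is a share of probe signal and not of RNA. The 75th percentile was 1539 to 1907 signal units on the MYB87-SRDX arrays and 1602 to 2053 on the wild-type arrays. The MYB87 probe read 5.75, 5.52, 5.58 and 2.54 on MYB87-SRDX replicates 1 to 4, against -5.48, -7.20, -7.44 and -7.08 on wild-type replicates 1 to 4. It was thus high on all 4 arrays labelled transgenic, with replicate 4 the lowest of them. The adjusted p was 0.000532 by limma, the linear model test used throughout, with Benjamini-Hochberg adjustment over 20336 loci and a threshold of 0.05.

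In 3 arrays the cell cycle genes were often at an extreme of their group. MYB87-SRDX replicate 3 was the highest of its group for 27 of the 41 tested genes (65.9%), against 31.6% of all loci. Wild-type replicate 1 was the lowest of its group for 30 of the 41 (73.2%), against 40.5% of all loci. For most of the genes that averaged lower in MYB87-SRDX, both of these arrays lay towards the other group. Wild-type replicate 2 was the highest of its group for 18 of the 41 (43.9%), against 13.9% of all loci, and also for 7 of 9 B-type cyclins.

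Of the 42 genes, 41 were well above background on all 8 arrays and were tested. CYCD7;1, a D-type cyclin of the stomatal lineage, was well above background on 1 MYB87-SRDX array and 2 wild-type arrays and was not tested. In MYB87-SRDX seedlings 10 of the 41 genes were lower (24.4%), where 12.5% of all 20336 tested loci were lower. Only KRP1 and CYCD5;1 were higher (4.88%), where 15.1% of all loci were higher. The remaining 29 genes did not pass. In either direction 12 genes passed (29.3%), close to the 27.6% of all loci. The groups did not overlap for 12 genes, 29.3% of the 41, where this held for 30.8% of all loci. The median log2 difference, MYB87-SRDX minus wild type, was -0.21 over the 41 genes and 0.01 over all loci, and 31 of the 41 differences were below 0. At an unadjusted p below 0.05 there were 17 genes. The share of all loci at that level was not counted, so the 17 genes cannot be set against it.

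The count of lower genes depended on the scaling and on single arrays. Scaling by the median gave 3 lower and 1 higher of the 41, with a median difference of all loci of 0.10 in that scaling. Of all 20336 loci, 1381 were then lower. Quantile scaling gave 4 lower of the 41, where 2382 of the 20336 loci were lower. Without MYB87-SRDX replicate 3 there were 13 lower genes, where 2310 of 20273 loci were lower. Without wild-type replicate 1 there were 12 (2897 of 20234 loci), and without wild-type replicate 2 there were 3 (1375 of 20201 loci). Under both scalings and without wild-type replicate 2, the share of lower genes was thus near that of all loci. CDKB2;1, CYCA2;2 and CYCD1;1 kept an adjusted p below 0.05 in all 19 alternatives. No gene short of the threshold in the main fit passed in more than 4 of the 19.

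**Figure D1:**
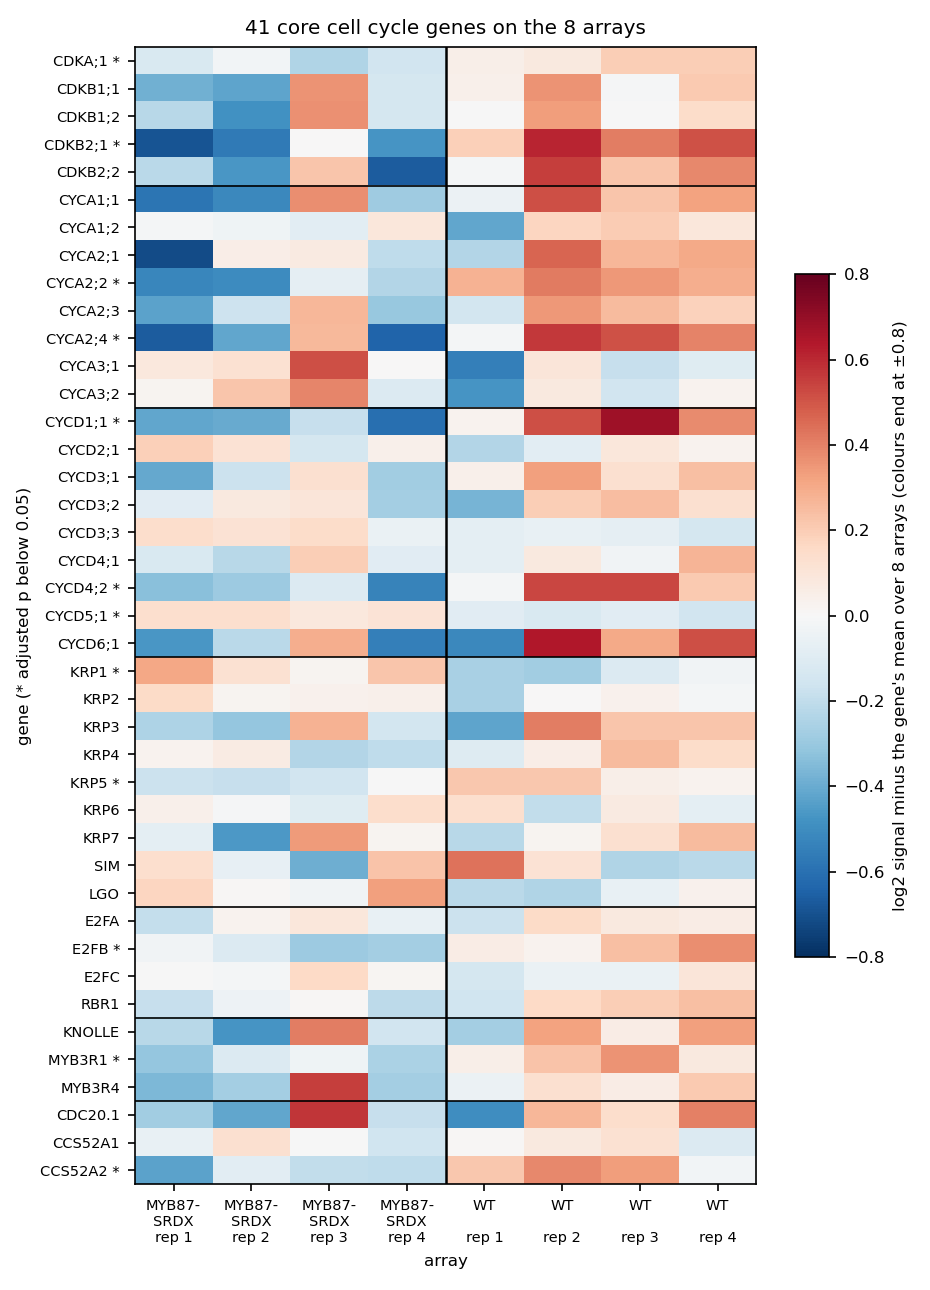
Log2 signal of the 41 tested cell cycle genes (rows, grouped by role) on the 4 MYB87-SRDX arrays (left) and the 4 wild-type arrays (right), as the difference from each gene's mean over the 8 arrays. Blue is below and red above that mean, colours end at 0.8, and a star marks an adjusted p below 0.05. MYB87-SRDX replicate 3 is redder than its companions for many kinases and A-type cyclins, and wild-type replicate 1 is paler or bluer than its own.

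Among the kinases, 2 of 5 fell in MYB87-SRDX (40%, against 12.5% of all loci) and none rose. Their median log2 difference was -0.30, and all 5 differences were below 0. That median was -0.47 without MYB87-SRDX replicate 3 and -0.26 without MYB87-SRDX replicate 1. It was -0.21 with median scaling and -0.20 with normexp background correction. CDKB2;1 (AT1G76540), a B-type kinase of G2 and mitosis that is also needed in the shoot meristem, had values of -1.34, -1.22, -0.65 and -1.12 on the MYB87-SRDX arrays, against -0.46, -0.04, -0.24 and -0.14 on the wild-type arrays. No array of one group lay in the range of the other, although MYB87-SRDX replicate 3 came close to wild-type replicate 1. The log2 difference was -0.86 ± 0.16 (SE), 1.82-fold lower in MYB87-SRDX (limma adjusted p = 0.00785). CDKA;1 (AT3G48750), the kinase that serves both entry into S phase and entry into mitosis, had values of 1.30, 1.40, 1.18 and 1.27 in MYB87-SRDX, against 1.47, 1.5, 1.62 and 1.62 in wild type. Its groups did not overlap and replicate 3 was here the lowest transgenic array. The difference was -0.26 ± 0.07 (SE) (limma adjusted p = 0.0311), a fall by 1.2-fold. Under median scaling it became -0.17, with an adjusted p of 0.348. The call was also lost without MYB87-SRDX replicates 1, 3 or 4 or without wild-type replicates 2, 3 or 4, with adjusted p values by limma of 0.0634 to 0.0795, by normexp background correction (0.0628), and with the replicate number as a block (0.0935).

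The other B-type kinases did not pass the test. CDKB2;2 (AT1G20930), the closest relative of CDKB2;1, had values of -3.17, -3.42, -2.73 and -3.62 in MYB87-SRDX, against -2.97, -2.40, -2.73 and -2.57 in wild type. Only MYB87-SRDX replicate 3 reached into the wild-type range. The difference was -0.57 ± 0.20 (SE, adjusted p = 0.0684 by limma), and without that array it was -0.74 with an adjusted p of 0.0205. It also passed without wild-type replicate 1 (-0.67, adjusted p = 0.047 by limma) and with array weights (-0.75, adjusted p = 0.0134). It did not pass in the other 16 alternatives, among them normexp (-0.29, adjusted p = 0.193 by limma). CDKB1;1 (AT3G54180), which pairs with A2-type cyclins and restrains endoreduplication, had values of -2.48, -2.52, -1.74 and -2.24 in MYB87-SRDX, against -2.06, -1.74, -2.11 and -1.89 in wild type. Replicate 3 matched the highest wild-type array and the other 3 transgenic arrays lay below all wild-type arrays. The difference was -0.30 ± 0.18 (SE, adjusted p = 0.24 by limma), and -0.47 with an adjusted p of 0.0321 without that array. CDKB1;1 passed in none of the other 18 alternatives, and with normexp it was -0.11 (adjusted p = 0.58 by limma). CDKB1;2 (AT2G38620) had values of -3.26, -3.52, -2.67 and -3.18 in MYB87-SRDX, against -3.04, -2.70, -3.04 and -2.89 in wild type, again with replicate 3 above all other arrays. Its difference was -0.24 ± 0.18 (SE, adjusted p = 0.334 by limma), and a second, dimmer probe of the gene gave -0.40.

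Of the 8 A-type cyclins 2 fell and none rose, with a median of -0.36. The share that fell was 25%, against 12.5% of all loci. The median became -0.10 with normexp and -0.23 without MYB87-SRDX replicate 1. All 4 cyclins of the A2 subgroup had differences below 0, while CYCA3;1 and CYCA3;2 had differences above 0. CYCA3;4, counted below among the other regulators, had a difference of -0.15 (adjusted p = 0.465 by limma). CYCA2;2 (AT5G11300), an A2 cyclin, had values of -4.50, -4.48, -4.05 and -4.21 in MYB87-SRDX, against -3.70, -3.56, -3.63 and -3.69 in wild type. Every MYB87-SRDX array lay below every wild-type array. The difference was -0.66 ± 0.11 (SE), 1.58-fold lower in MYB87-SRDX (limma adjusted p = 0.00571), and -0.38 with normexp. CYCA2;4 (AT1G80370), another A2 cyclin, had values of -4.62, -4.37, -3.70 and -4.60 in MYB87-SRDX, against -3.97, -3.39, -3.45 and -3.56 in wild type. The groups overlapped at MYB87-SRDX replicate 3 and wild-type replicate 1. The difference was -0.73 ± 0.22 (SE), a fall by 1.66-fold (limma adjusted p = 0.0433), and -0.44 with normexp. The call was lost under median and quantile scaling, without a filter on dim probes, and when any single array other than MYB87-SRDX replicate 3 or wild-type replicate 1 was left out. The adjusted p values by limma were then 0.0621 to 0.112.

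CYCA2;1 (AT5G25380), which limits endoreduplication, had values of -6.76, -5.99, -5.97 and -6.25 in MYB87-SRDX, against -6.28, -5.58, -5.78 and -5.74 in wild type. The groups overlapped at wild-type replicate 1. The difference was -0.40 ± 0.21 (SE, adjusted p = 0.189 by limma). Of the 19 alternatives it passed only with the replicate block (adjusted p = 0.0366 by limma). With normexp it was -0.05 (adjusted p = 0.601 by limma), and the probe was dim, at 14 to 43 signal units. CYCA1;1 (AT1G44110), a cyclin of the approach to mitosis, had values of -1.55, -1.48, -0.59 and -1.25 in MYB87-SRDX, against -1.01, -0.45, -0.74 and -0.64 in wild type. Replicate 3 alone lay within the wild-type range, and the other 3 transgenic arrays lay below it. The difference was -0.51 ± 0.22 (SE, adjusted p = 0.122 by limma), and -0.72 with an adjusted p of 0.0163 without that array. CYCA3;1 (AT5G43080), of the A3 subgroup that is expressed around the start of S phase, had values of -3.54, -3.50, -3.11 and -3.62 in MYB87-SRDX, against -4.17, -3.53, -3.81 and -3.72 in wild type. The overlap came from wild-type replicate 2. The difference was 0.37 ± 0.16 (SE, adjusted p = 0.119 by limma), and 0.36 with an adjusted p of 0.0368 with normexp. The remaining A cyclins had differences of 0.26 for CYCA3;2, -0.32 for CYCA2;3 and -0.02 for CYCA1;2, with adjusted p values by limma of 0.187 to 0.919. CYCA2;3 reached -0.46 with an adjusted p of 0.0458 without MYB87-SRDX replicate 3.

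**Figure D2:**
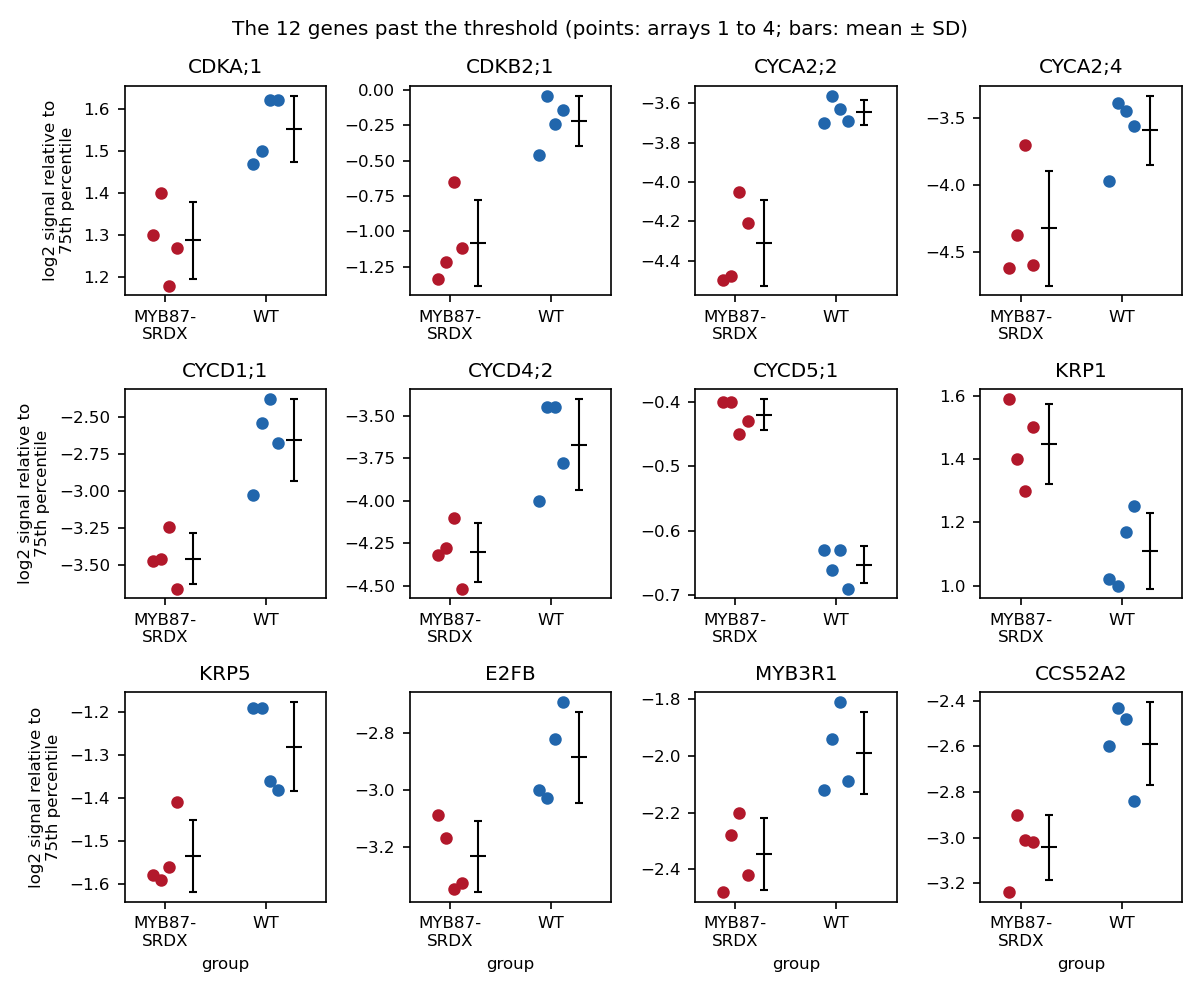
Log2 signal relative to the array's 75th percentile for the 12 genes past the threshold, in MYB87-SRDX (left, red) and wild type (right, blue). Points are replicates 1 to 4 from left to right and bars are mean ± SD (n = 4); each panel has its own vertical scale. The groups overlap only for CYCA2;4, while KRP1 and CYCD5;1 are the genes whose MYB87-SRDX points lie above wild type.

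D-type cyclins were called in both directions, with 2 of 9 tested genes lower, 1 higher and a median of -0.12. Against 12.5% and 15.1% of all loci, 22.2% of these cyclins were lower and 11.1% higher. Their median was -0.24 without wild-type replicate 1, -0.21 without MYB87-SRDX replicate 3, -0.07 without wild-type replicate 4, -0.03 with median scaling and -0.02 with normexp. CYCD1;1 (AT1G70210), a D-type cyclin known from the first divisions during germination, had values of -3.47, -3.46, -3.24 and -3.66 in MYB87-SRDX, against -3.03, -2.54, -2.38 and -2.68 in wild type. No transgenic array reached the wild-type range. The difference was -0.80 ± 0.15 (SE), 1.74-fold lower in MYB87-SRDX (limma adjusted p = 0.00823). CYCD4;2 (AT5G10440), a D-type cyclin known from division in the stomatal lineage of the hypocotyl, had values of -4.32, -4.28, -4.10 and -4.52 in MYB87-SRDX, against -4.00, -3.45, -3.45 and -3.78 in wild type. The wild-type arrays all lay above the transgenic ones, and wild-type replicate 1 was nearest to the transgenic arrays. The difference was -0.64 ± 0.15 (SE), a fall by 1.56-fold (limma adjusted p = 0.0169), and -0.42 with normexp. Its adjusted p was 0.0607 under median scaling, 0.0518 under quantile scaling and 0.0505 without wild-type replicate 2.

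CYCD5;1 (AT4G37630), a D-type cyclin linked to differences in endoreduplication between Arabidopsis accessions, rose. Its values were -0.40, -0.40, -0.45 and -0.43 in MYB87-SRDX, against -0.63, -0.66, -0.63 and -0.69 in wild type. Both groups were tight and well separated. The difference was 0.23 ± 0.05 (SE), 1.17-fold higher in MYB87-SRDX (limma adjusted p = 0.0157), and 0.40 with normexp. The call was lost with the replicate block (adjusted p = 0.0641) and without wild-type replicate 2 (adjusted p = 0.0524). CYCD3;1 (AT4G34160), the D-type cyclin that responds to cytokinin, had values of -0.05, 0.19, 0.49 and 0.08 in MYB87-SRDX, against 0.40, 0.69, 0.49 and 0.60 in wild type. Replicate 3 lay in the wild-type range and the other 3 transgenic arrays below it. The difference was -0.37 ± 0.12 (SE, adjusted p = 0.0608 by limma), and -0.47 with an adjusted p of 0.0177 without that array. The gene also passed with array weights (adjusted p = 0.0151), with the trended and robust variance (0.0456) and with the percentile taken over bright spots (0.0462).

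CYCD3;3 (AT3G50070), a close relative of CYCD3;1, had values of 1.46, 1.44, 1.47 and 1.27 in MYB87-SRDX, against 1.24, 1.26, 1.25 and 1.18 in wild type. There was no overlap, with MYB87-SRDX replicate 4 just above the highest wild-type array. The difference was 0.18 ± 0.07 (SE, adjusted p = 0.0747 by limma), and 0.22 with an adjusted p of 0.0451 without that array. CYCD6;1 (AT4G03270), which acts in the formative division of the root ground tissue downstream of SHR and SCR, had values of -4.84, -4.59, -4.08 and -4.92 in MYB87-SRDX, against -4.89, -3.73, -4.07 and -3.86 in wild type. Wild-type replicate 1 was as low as the lowest transgenic arrays, so the groups overlapped. The difference was -0.47 ± 0.28 (SE, adjusted p = 0.245 by limma), and -0.72 with an adjusted p of 0.0375 without that array. CYCD6;1 also passed with array weights but in none of the other 17 alternatives. Over all 19 its difference ran from -0.72 to -0.02, with adjusted p values by limma up to 0.953. CYCD2;1, CYCD3;2 and CYCD4;1 had differences of 0.10, -0.10 and -0.12, with adjusted p values by limma of 0.455 to 0.657.

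Of the 4 genes of the RBR1 and E2F switch, E2FB fell and the others did not pass. That 1 gene was 25% of the class, where 12.5% of all loci were lower. The median of the 4 was -0.14. It was -0.22 without wild-type replicate 1 and -0.05 under median or quantile scaling. E2FB (AT5G22220), an E2F factor that promotes division, had values of -3.09, -3.17, -3.35 and -3.33 in MYB87-SRDX, against -3.00, -3.03, -2.82 and -2.69 in wild type. All transgenic arrays were below all wild-type arrays, but MYB87-SRDX replicate 1 lay close to wild-type replicate 2. The difference was -0.35 ± 0.10 (SE), a fall by 1.27-fold (limma adjusted p = 0.0352). The call was lost in 12 of 19 alternatives, among them median scaling (-0.26, adjusted p = 0.238), quantile scaling (-0.22, adjusted p = 0.284), normexp (adjusted p = 0.0695) and the block (0.105). Without MYB87-SRDX replicates 2, 3 or 4 or wild-type replicates 2, 3 or 4 its adjusted p by limma was 0.0503 to 0.0853.

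RBR1 (AT3G12280), the retinoblastoma protein itself, had values of -1.44, -1.30, -1.25 and -1.47 in MYB87-SRDX, against -1.42, -1.10, -1.06 and -1.02 in wild type. Wild-type replicate 1 lay among the transgenic arrays and the other 3 lay above all of them. The difference was -0.22 ± 0.10 (SE, adjusted p = 0.159 by limma), and -0.31 with an adjusted p of 0.0249 without that array. E2FC (AT1G47870), known as a brake on division, had values of -0.90, -0.91, -0.74 and -0.88 in MYB87-SRDX, against -1.04, -0.95, -0.95 and -0.80 in wild type, with a difference of 0.08 ± 0.07 (SE, adjusted p = 0.454 by limma). E2FA (AT2G36010), which promotes replication, had values of -2.38, -2.16, -2.10 and -2.25 in MYB87-SRDX, against -2.36, -2.04, -2.11 and -2.13 in wild type. The difference was -0.06 ± 0.09 (SE, adjusted p = 0.639 by limma), with a 95% interval of -0.28 to 0.15. For both E2FA and E2FC the groups overlapped.

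Among the 3 mitotic genes MYB3R1 fell, and MYB3R4 and KNOLLE did not pass. Thus 1 gene, 33.3% of the class, was lower, against 12.5% of all loci. MYB3R1 (AT4G32730), which can activate or repress mitotic genes, had values of -2.48, -2.28, -2.20 and -2.42 in MYB87-SRDX, against -2.12, -1.94, -1.81 and -2.09 in wild type. All 4 transgenic arrays lay below the lowest wild-type array. The difference was -0.36 ± 0.10 (SE), a fall by 1.28-fold (limma adjusted p = 0.03), and the second probe of the gene also gave -0.36. The call was lost under median scaling (adjusted p = 0.203), quantile scaling (0.127) and normexp (-0.18, adjusted p = 0.152). It was lost too without MYB87-SRDX replicates 1, 2 or 4 or wild-type replicates 2 or 3, with adjusted p values by limma of 0.0527 to 0.0827.

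MYB3R4 (AT5G11510), an activator of mitotic genes, had values of -2.07, -1.98, -1.16 and -1.98 in MYB87-SRDX, against -1.76, -1.58, -1.65 and -1.50 in wild type. Replicate 3 was the highest of all 8 arrays, while the other 3 transgenic arrays were the lowest. The difference was -0.17 ± 0.20 (SE, adjusted p = 0.54 by limma), and -0.38 with an adjusted p of 0.0183 without replicate 3. KNOLLE (AT1G08560), the syntaxin that fuses vesicles at the new cell plate, had values of 1.57, 1.32, 2.20 and 1.64 in MYB87-SRDX, against 1.52, 2.11, 1.85 and 2.12 in wild type. Here too replicate 3 was the highest array, and the groups overlapped. The difference was -0.22 ± 0.21 (SE, adjusted p = 0.46 by limma), with a 95% interval of -0.70 to 0.26.

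Of the 3 APC/C activators, CCS52A2 fell. That 1 gene was 33.3% of the class, where 12.5% of all loci were lower. CCS52A2 (AT4G11920), which promotes exit from mitosis and is needed to maintain the root meristem, had values of -3.24, -2.90, -3.01 and -3.02 in MYB87-SRDX, against -2.60, -2.43, -2.48 and -2.84 in wild type. The groups did not overlap, with wild-type replicate 4 the nearest to the transgenic arrays. The difference was -0.46 ± 0.11 (SE), a fall by 1.37-fold (limma adjusted p = 0.0209), and -0.29 with normexp. Median scaling (0.073), quantile scaling (0.0577) and leaving out MYB87-SRDX replicate 1 or wild-type replicates 2 or 3 (0.0546 to 0.0625) put its adjusted p above the threshold. CCS52A1 (AT4G22910), its relative in endoreduplicating cells, had values of -1.07, -0.88, -1.01 and -1.17 in MYB87-SRDX, against -1, -0.93, -0.89 and -1.12 in wild type. The groups overlapped fully, with a difference of -0.05 ± 0.08 (SE, adjusted p = 0.706 by limma) and a 95% interval of -0.24 to 0.15. CDC20.1 (AT4G33270), which activates the complex at anaphase, had values of -0.19, -0.33, 0.66 and -0.10 in MYB87-SRDX, against -0.41, 0.35, 0.23 and 0.49 in wild type. Replicate 3 was the highest of the 8 arrays and wild-type replicate 1 the lowest. The difference was -0.16 ± 0.26 (SE, adjusted p = 0.687 by limma).

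Of the 9 inhibitors 1 rose and 1 fell in MYB87-SRDX, and the median of -0.05 became 0.04 under median scaling and 0.02 under quantile scaling. The share called was 22.2%, against 27.6% of all loci. KRP1 (AT2G23430), an inhibitor of kinase complexes with D-type cyclins, had values of 1.59, 1.40, 1.30 and 1.5 in MYB87-SRDX, against 1.02, 1, 1.17 and 1.25 in wild type. All transgenic arrays lay above all wild-type arrays. The difference was 0.34 ± 0.09 (SE), 1.26-fold higher in MYB87-SRDX (limma adjusted p = 0.028). The adjusted p was 0.0553 under median scaling, where the difference was 0.43, and 0.0698 with the block. It was 0.0516 to 0.0817 by limma without MYB87-SRDX replicates 1, 2 or 4 or wild-type replicates 2 or 3.

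KRP5 (AT3G24810), of the same family, had values of -1.58, -1.59, -1.56 and -1.41 in MYB87-SRDX, against -1.19, -1.19, -1.36 and -1.38 in wild type. The groups did not overlap, but the replicates numbered 4 lay next to each other. The difference was -0.25 ± 0.08 (SE), a fall by 1.19-fold (limma adjusted p = 0.0412). The call was lost in 11 of 19 alternatives, with adjusted p values by limma of 0.0607 to 0.115 without MYB87-SRDX replicates 1, 2 or 3 or wild-type replicates 1, 2 or 3. The difference was -0.16 under median scaling (adjusted p = 0.221) and also -0.16 with normexp (adjusted p = 0.256).

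LGO (AT3G10525), an inhibitor of the SIM family that drives the large endoreduplicated cells of the epidermis, had values of 2.22, 2.06, 2.02 and 2.38 in MYB87-SRDX, against 1.83, 1.81, 1.99 and 2.08 in wild type. The overlap was small. The difference was 0.24 ± 0.10 (SE, adjusted p = 0.114 by limma). KRP3 (AT5G48820) had values of -3.82, -3.88, -3.29 and -3.72 in MYB87-SRDX, against -3.99, -3.16, -3.35 and -3.35 in wild type, with a difference of -0.21 ± 0.20 (SE, adjusted p = 0.447 by limma). KRP4 (AT2G32710) had values of -0.02, 0.02, -0.28 and -0.25 in MYB87-SRDX, against -0.15, 0.01, 0.21 and 0.10 in wild type, with a difference of -0.17 ± 0.11 (SE, adjusted p = 0.245 by limma). For both KRP3 and KRP4 the groups overlapped. KRP2, KRP6, KRP7 and SIM, the inhibitor of division in trichomes, had differences of 0.12, 0.04, -0.09 and -0.05, with adjusted p values by limma of 0.274 to 0.869. A second, much dimmer probe of KRP6 gave 0.33.

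**Figure D3:**
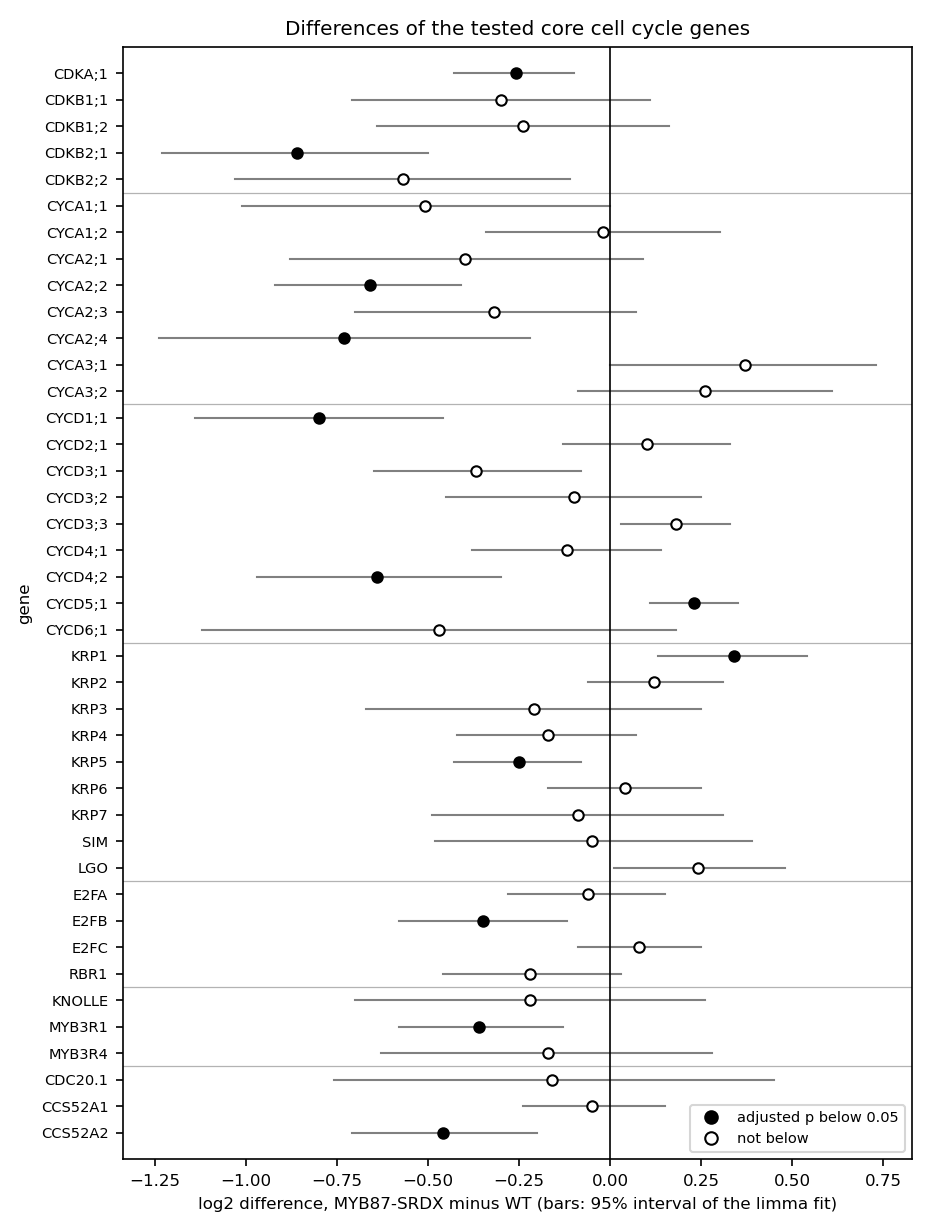
Log2 difference, MYB87-SRDX minus wild type, of the 41 tested genes grouped by role, with the 95% interval of the limma fit (bars); filled points have an adjusted p below 0.05. The kinases all lie left of 0, from -0.86 for CDKB2;1 to -0.24 for CDKB1;2, while the inhibitors spread on both sides, from -0.25 for KRP5 to 0.34 for KRP1.

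The rest of the division machinery was read from lists of other cell cycle genes. Among 18 genes of DNA replication, 5 rose and none fell, with a median of 0.21. The share that rose was 27.8%, against 15.1% of all loci, and none fell, against 12.5% of all loci. The median became 0.10 without wild-type replicate 1, 0.14 without MYB87-SRDX replicate 3 and 0.11 with array weights. CDC6A, which loads the replicative helicase at origins, had values of -1.66, -1.79, -1.58 and -1.91 in MYB87-SRDX, against -2.50, -2.26, -2.31 and -2.13 in wild type. The groups did not overlap, and the difference was 0.57 ± 0.10 (SE, adjusted p = 0.00759 by limma). TSO2, a small subunit of ribonucleotide reductase, rose by 0.43 ± 0.12 (SE, adjusted p = 0.0286 by limma). The other rises, named after their values were seen, were the helicase subunit MCM7 (0.43), the origin protein ORC2 (0.40) and the replication factor ETG1 (0.36). There were 2 calls without MYB87-SRDX replicate 1, 2 without MYB87-SRDX replicate 3, 3 without MYB87-SRDX replicate 4, 3 without wild-type replicate 1, 2 without wild-type replicate 2, 1 without wild-type replicate 3 and 1 with the replicate block.

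Genes of mitosis and cytokinesis had a median of -0.22, with 1 higher and 1 lower of 25. The share called was 8%, against 27.6% of all loci. CKS1, a small kinase-binding subunit, rose by 0.43 ± 0.13 (SE, adjusted p = 0.0457 by limma). GIG1, an inhibitor of the APC/C, fell by 0.56 ± 0.16 (SE, adjusted p = 0.0369 by limma), with values of -3.33, -3.38, -2.74 and -3.42 in MYB87-SRDX, against -2.88, -2.62, -2.61 and -2.50 in wild type. MYB87-SRDX replicate 3 was the highest of its group for 21 of these 25 genes. Without that array 8 genes were lower and 1 higher, with a median of -0.43. Without wild-type replicate 1, 5 were lower and none higher, with a median of -0.34. Leaving out any other single array left 0 or 1 gene past the threshold by limma. The median of the list was -0.13 with median scaling and with normexp. It was -0.16 with quantile scaling and without MYB87-SRDX replicate 1.

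B-type cyclins, the partners of kinases in mitosis, had 3 lower and none higher of 9, with a median of -0.55. The share that fell was 33.3%, against 12.5% of all loci. CYCB1;4 fell by 0.95 ± 0.18 (SE, adjusted p = 0.00823 by limma) and CYCB2;3 fell by 0.68 ± 0.18 (SE, adjusted p = 0.0286 by limma). CYCB2;4, named after its value was seen, fell by 0.63. Without MYB87-SRDX replicate 3 all 9 were lower, without wild-type replicate 1 there were 5, and without any other single array there was 1.

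**Figure D4:**
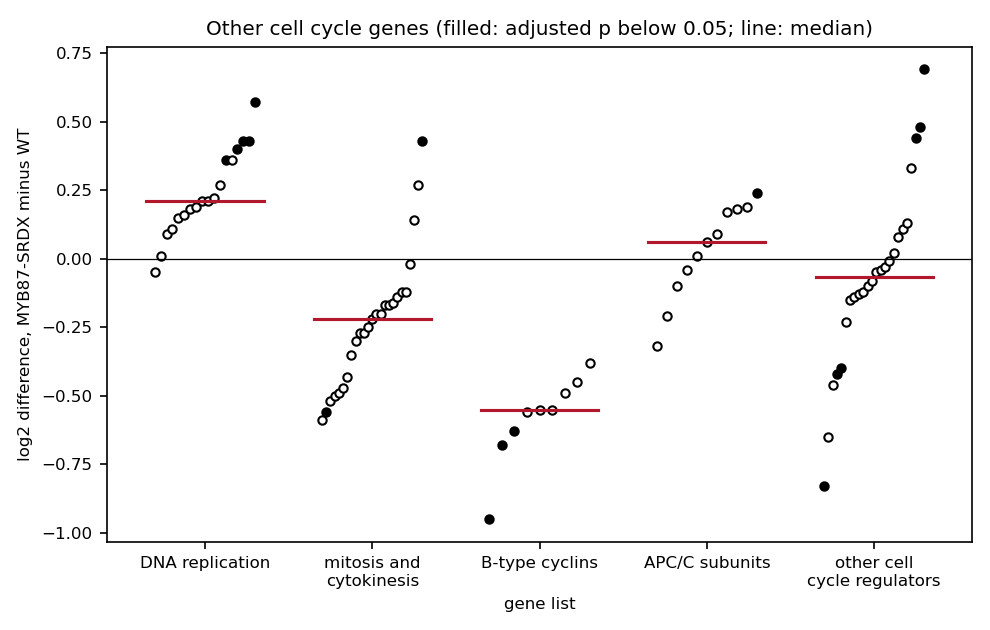
Log2 difference, MYB87-SRDX minus wild type, of every tested gene in 5 lists of other cell cycle genes; filled points have an adjusted p below 0.05 and red lines are list medians. DNA replication genes lie mostly above 0 with a median of 0.21, while mitosis and cytokinesis genes and B-type cyclins lie mostly below 0 with medians of -0.22 and -0.55.

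Of 11 APC/C subunits only APC1, the scaffold subunit, passed, with a rise by 0.24 ± 0.07 (SE, adjusted p = 0.0488 by limma). The share of subunits called was 9.09%, against 27.6% of all loci. The call count was 0 without MYB87-SRDX replicates 1, 2 or 3 and without wild-type replicates 1, 2 or 3, where limma was fitted to 7 arrays. Of 26 other regulators, 24 were tested, 3 rose and 3 fell, with a median of -0.06 that became 0.03 under median scaling and 0.01 under quantile scaling. The share called was 25%, against 27.6% of all loci. DEL2, an atypical E2F relative, fell by 0.83 ± 0.10 (SE, adjusted p = 0.00229 by limma), with values of -2.86, -2.91, -2.60 and -2.76 in MYB87-SRDX, against -2.19, -1.89, -1.83 and -1.88 in wild type. The groups were well apart. MYB3R5, a repressor of mitotic genes, fell by 0.42 ± 0.07 (SE, adjusted p = 0.00448 by limma). SMR4, an inhibitor of the SIM family, rose by 0.69 ± 0.13 (SE, adjusted p = 0.00959 by limma) and the locus AT1G08180 rose by 0.48 ± 0.08 (SE, adjusted p = 0.00486 by limma). CDKD;1, a kinase that activates other kinases of the family, fell by 0.40 and the locus AT5G40460 rose by 0.44, both named after their values were seen.

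The array pattern differed between these groups of genes. On MYB87-SRDX replicates 1 to 4 the median deviation of the kinases from each gene's mean over the 8 arrays was -0.22, -0.47, 0.22 and -0.15, against 0.04, 0.35, 0.20 and 0.21 on wild-type replicates 1 to 4. The A-type cyclins had -0.47, -0.10, 0.26 and -0.22 on the MYB87-SRDX arrays, against -0.19, 0.38, 0.24 and 0.24 on the wild-type arrays. For both groups, MYB87-SRDX replicate 3 stood at the level of wild-type replicates 3 and 4. DNA replication genes had 0.06, 0.07, 0.33 and 0 on the MYB87-SRDX arrays, against -0.36, 0, -0.13 and 0.09 on the wild-type arrays. Replicate 3 was again the highest transgenic array and wild-type replicate 1 the lowest wild-type array. The inhibitors stayed between -0.03 and 0.05 on all arrays other than wild-type replicate 1, where they had -0.22. All tested loci had medians between -0.04 and 0.01.

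**Figure D5:**
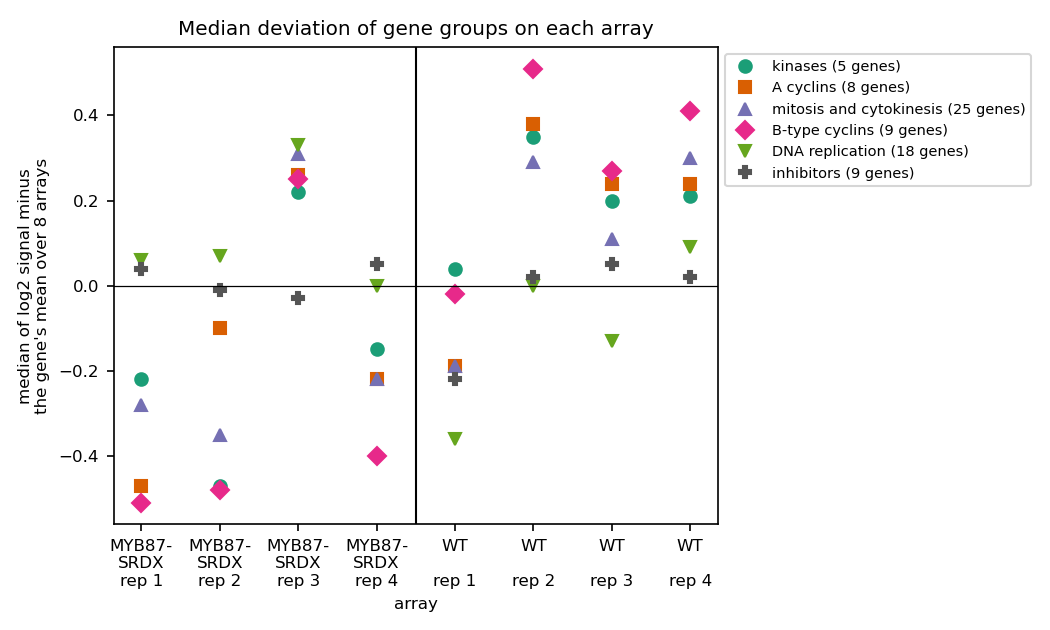
Median deviation from each gene's mean over the 8 arrays (log2) for 6 groups of cell cycle genes, on the 4 MYB87-SRDX arrays (left) and the 4 wild-type arrays (right). On MYB87-SRDX replicate 3 the kinases (0.22), A-type cyclins (0.26) and B-type cyclins (0.25) lie above 0, unlike on the other 3 transgenic arrays, and on wild-type replicate 1 DNA replication genes reach their lowest value of -0.36.

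Markers of dividing and differentiating cell types were read on the same arrays, as sums of linear signals in units of the array's 75th percentile. The share called was 20% of root meristem, 33.3% of tested shoot meristem, 25% of trichome and 66.7% of leaf markers. It was 0% of stomatal and of root markers. Over all loci 27.6% were called, 15.1% higher and 12.5% lower. Of 5 root meristem markers 1 fell, and their sum was 3.14 to 3.85 in MYB87-SRDX, against 3.93 to 4.67 in wild type. The faller was SHR, a regulator of root radial pattern, at -0.41 (adjusted p = 0.00496 by limma), and under median scaling no root meristem marker passed. SCR made up 68.6% to 73.2% of the root meristem sum in MYB87-SRDX and 66.3% to 71.4% in wild type. It did not pass (-0.27, adjusted p = 0.107 by limma). PLT2 (-0.31, adjusted p = 0.557 by limma) and WOX5 (-0.27, adjusted p = 0.411) did not pass either. PLT1 went the other way without passing (0.52, adjusted p = 0.482 by limma), and was well above background on 3 MYB87-SRDX and 2 wild-type arrays. Of 5 shoot meristem markers 3 were tested and 1 rose, STM, which keeps meristem cells undifferentiated, by 1.71 (adjusted p = 0.0079 by limma). CLV1 (-0.05, adjusted p = 0.662 by limma) and KNAT1 (-0.07, adjusted p = 0.736) did not pass. The defining stem cell markers WUS and CLV3 were not well above background on any array. The shoot sum was 4.01 to 4.76 in MYB87-SRDX and 3.93 to 4.48 in wild type, and CLV1 made up 78.3% to 83.2% of it in MYB87-SRDX and 84.2% to 88.3% in wild type. All 4 trichome markers had differences below 0, with a median of -0.58, and GL3 fell by 0.79 while the other 3 did not pass. Without wild-type replicate 1 there were 3 lower, where 2897 of 20234 loci were lower. With array weights there were 4, where 3548 of 20336 loci were lower. With normexp there were 0, where 2151 of 20336 loci were lower and the trichome median was -0.27. GL3 was dim, with means of -6.29 in MYB87-SRDX and -5.49 in wild type. The lowest signals well above background on the arrays were -7.36 to -6.91. The trichome sum was 0.833 to 1.41 in MYB87-SRDX and 1.10 to 1.79 in wild type. None of 5 stomatal lineage markers passed by limma, 1 had an unadjusted p below 0.05, and their sum was 2.47 to 3.70 in MYB87-SRDX and 2.31 to 3.42 in wild type. Leaf markers had 1 higher and 1 lower of 3, with sums of 119 to 143 in MYB87-SRDX and 108 to 149 in wild type. RBCS1A, a small subunit of Rubisco, made up 97.4% to 98.3% of the leaf sum in MYB87-SRDX and 94.4% to 96.6% in wild type, so the sum shows little of the other genes. In each of the other marker lists, too, 1 gene made up over 60% of the sum on every array. Of 3 root markers 0 passed by limma and 0 had an unadjusted p below 0.05, with sums of 1.42 to 3.92 in MYB87-SRDX and 1.53 to 5.88 in wild type. Without wild-type replicate 1, 2 root meristem markers and 1 stomatal marker were lower. Without MYB87-SRDX replicate 2, 1 stomatal marker was higher. No leaf marker was higher by limma without MYB87-SRDX replicate 1, wild-type replicate 2 or wild-type replicate 3. The part of these cell types in the differences of the cell cycle genes was not tested.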

How the data were processed

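Total RNA was labelled with Cy3 and measured on 8 one-colour Agilent arrays. Per the labels, the spot intensity values in the deposited scanner tables were made with Agilent Feature Extraction 9.1.3.1, as the submitters' processing notes state. The background-corrected processed signal of the authors was used. The authors' deposited value table holds the same signal times a constant, 0.001175 for MYB87-SRDX and 0.001094 for wild type (medians 0.108, 0.133, 0.114 and 0.114, and 0.129, 0.15, 0.123 and 0.105), so it is linear and not centred. The sources used here do not say why the constants differ.

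Spots with an outlier flag were left out, each array's 75th percentile was subtracted on the log2 scale, and replicate spots were averaged per probe. Probes had to be well above background on 3 or more arrays of either group (63.1% to 65.5% of an array's spots were), and each locus was represented by its brightest such probe. 3 of the cell cycle genes have 2 probes. Moderated linear models from limma 3.58.1 (R 4.3.3) tested 20336 loci without a replicate block, and the steps were tested on simulated data. The simulated noise was independent between genes. It held no shift shared by many genes of an array, so it does not cover the array patterns described above. Symbols came from a RefSeq gene table, which matched 25449 of 25665 loci. Replicate precision is limited by the 4 arrays per group.

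The genes, lists and the rule for naming genes were chosen with earlier results of these data known. The rule gives every cell cycle gene past the threshold, the 3 largest differences short of it in each role class, and the 2 largest rises and falls past it in each other list. Alternatives were other scalings, normexp (offset 50), the authors' values, other filters and probe summaries, array weights, a trended and robust variance, a replicate block and the omission of each array. Normexp used the median signal, since the mean signal is not among the columns used here.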

Additional observations from a re-analysis of the deposited data

Results flagged for a closer look

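In 6 of 82 sets of 4 arrays (7.32%) a single array lay far from the other 3, by the size of its gap relative to the whole range of the group. Chance gives about 1 in 20. MYB3R4 stood at -1.16 on MYB87-SRDX replicate 3, against -2.07 to -1.98 on the other MYB87-SRDX arrays. CYCD3;3 was at 1.27 on MYB87-SRDX replicate 4, against 1.44 to 1.47 on its companions, and at 1.18 on wild-type replicate 4, against 1.24 to 1.26. KRP5 was at -1.41 on MYB87-SRDX replicate 4, against -1.59 to -1.56. On wild-type replicate 1, CYCA1;2 was at -3.14, against -2.63 to -2.52 on the other wild-type arrays, and KRP2 was at 0.34, against 0.58 to 0.63.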

How the results depend on the processing

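The 12 cell cycle genes past the threshold kept their direction in all 19 alternatives, and 7 of the 29 others changed sign in at least 1. Over 779 values of single genes, 693 stayed on their side of the threshold, 66 lost a call and 20 gained one. The number of lower cell cycle genes (10) became 3 with median scaling, 4 with quantile scaling, 6 with normexp and 16 with array weights, and 3 to 13 when 1 array was left out. The number of higher genes (2) became 1 with median scaling and 0 to 2 when 1 array was left out. With the replicate block the higher genes numbered 0 and the lower genes 8. Same-numbered arrays correlated at 0.095, 0.09, 0.155 and -0.223 in their deviations from the group means, and 2 of 4 correlated best with their own number, so the numbers were not taken as pairs. Of all loci, 3064 were higher and 2540 lower. These became 1812 higher with the replicate block, 2675 higher and 1381 lower with median scaling, and 1576 to 3109 higher and 1375 to 2897 lower when 1 array was left out. Calls among DNA replication genes (5) became 1 with the replicate block and 1 to 6 without 1 array. Mitosis and cytokinesis calls (2) became 1 with median scaling, 1 with quantile scaling, 0 without a filter on dim probes, 9 with array weights, 1 with the replicate block and 0 to 9 without 1 array. B-type cyclin calls (3) became 1 with median scaling, 1 with quantile scaling, 9 with array weights, 1 with the replicate block and 1 to 9 without 1 array. APC/C subunit calls (1) became 0 with median scaling, 0 with the percentile over bright spots, 2 with quantile scaling, 2 with normexp, 0 without a filter, 2 with the mean of probes, 0 with the replicate block and 0 to 1 without 1 array. Calls among the other regulators (6) ran from 4 to 8 without 1 array. Leaving out an array leaves fewer samples, and the cause of the other changes was not tested. Normexp adds an offset of 50, and its part in the changes was not tested. The difference of CYCD5;1, at 995 to 1447 signal units, grew from 0.23 to 0.40. The median local background was 52.5 to 54 on the MYB87-SRDX arrays and 63 to 64.5 on the wild-type arrays. The 5th percentile of median signal minus background was 21 to 25 and 10 to 11, respectively. The part of this background difference in the values of dim genes was not tested.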
